A study of Mus musculus with 12 samples.

Results

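The genes described here were 52 mouse genes of mitosis and the G2/M transition, among them the mitotic cyclins, their kinase *Cdk1*, the Polo and Aurora kinases, and genes of the kinetochore, the spindle and cytokinesis. They were taken as a list by symbol from the authors' table of normalized counts, and kept if their mean over the 11 libraries of the table was at least 10. All 52 passed, of 18400 genes with such a mean among 27754 entries.

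RNA was sequenced from cochlear sensory epithelium of mouse pups of mixed C57BL/6 and CD1 strain. Treated pups were Sox2-CreER/+; β-catenin-flox(Exon3)/+, and untreated pups were littermates that carried β-catenin-flox(Exon3)/+ without Cre. All mothers, of untreated pups too, received 100 µl of tamoxifen at 50 µg/µl on day 1 (P1 groups) or day 4 (P4 groups) after delivery, and pups were taken 72 h later, at postnatal day 4 or day 7. In this model Cre is made in SOX2-expressing cells and removes exon 3 from 1 copy of the β-catenin gene *Ctnnb1*, which stabilizes the protein in those cells. The tissue had been incubated with Cell Recovery Solution to keep hair cells and supporting cells and leave mesenchyme and neurons behind, and each library held both ears of 1 pup, so replicates were separate animals. At P1 there were 3 treated and 3 untreated libraries, and at P4 3 untreated and 2 treated ones (replicates 1 and 3). The remaining library, P4 treated replicate 2, was not analysed here, and the authors excluded 1 sample for insufficient Cre activation.

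Entry into mitosis is driven by Cdk1 bound to cyclin B, which is opened by Cdc25 phosphatases and helped by the Polo and Aurora kinases. Chromosomes then attach to the spindle through kinetochores, a checkpoint holds the anaphase-promoting complex (APC/C) back until they are attached, and the APC/C with its activator Cdc20 destroys cyclin B before the cell divides. Most of these genes are transcribed in G2 and mitosis, so their RNA marks dividing cells. Hair cells and supporting cells of the cochlea leave the cell cycle before birth, and supporting cells of the newborn mouse can re-enter it when Wnt signalling is raised.

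Promoters of such genes often carry a cell cycle genes homology region (CHR), with the letters TTTGAA, and CCAAT boxes, which bind the factor NF-Y. RefSeq start sites were found for 44 of the 52 genes in a table of promoters of GRCm38.p6 (mm10), each reaching from 250 bases before to 50 bases after the start. TTTGAA on either strand lay in the window of 31 of the 44 (70.5%), against 20.2% of 27025 gene symbols with such a window and 14.7% of those among them that were tested here. CCAAT on either strand lay in 34 (77.3%), against 41.1% of all symbols. The variant TTCGAA lay in 4 (9.09%, against 1.8%), and GGCGG, the core of the element that often precedes a CHR, in 39 (88.6%, against 51.2% of all and 80.8% of tested symbols). TTTGAA or TTCGAA together with CCAAT lay in 29 (65.9%, against 8.61%). The TTTGAA matches gathered at the start. Within 50 bases on either side of it, a distance chosen after the positions were seen, 28 of the 44 genes had a match (63.6%), against 5.72% of all symbols.

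The stretches below are those around the TTTGAA nearest to the start in the 13 genes with such a match that were called in a comparison of ages described further on, and they are shown because the element and its place at the start recur from gene to gene. Capitals mark this nearest TTTGAA, or TTCAAA where it lay on the other strand. A second match in the stretches of *Kif20b* and *Anln* is left in lower case. All are written 5′ to 3′ on the strand of the gene, from RefSeq promoters of GRCm38.p6.
Ccnb2 (chr9:70421533-70421562, minus strand): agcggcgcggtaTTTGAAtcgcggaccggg
Cks1b (chr3:89418291-89418320, minus strand): gcgggcggtgtgTTTGAAagcgaggccaaa
Cdk1 (chr10:69352910-69352939, minus strand): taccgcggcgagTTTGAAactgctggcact
Plk1 (chr7:122159453-122159482, plus strand): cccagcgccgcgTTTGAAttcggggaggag
Cdc20 (chr4:118437344-118437373, minus strand): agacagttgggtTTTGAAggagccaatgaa
Ube2c (chr2:164769888-164769917, plus strand): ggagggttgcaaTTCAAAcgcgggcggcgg
Cenpf (chr1:189688067-189688096, minus strand): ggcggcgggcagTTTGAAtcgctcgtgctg
Ckap2 (chr8:22185903-22185932, minus strand): gctttgttcgatTTTGAAatttctcgccgg
Kif2c (chr4:117178858-117178887, minus strand): ccaggctgctctTTCAAAcctgagtaatgc
Kif20b (chr19:34922353-34922382, plus strand): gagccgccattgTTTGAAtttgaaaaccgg
Prc1 (chr7:80294434-80294463, plus strand): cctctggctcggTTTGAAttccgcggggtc
Anln (chr9:22389168-22389197, minus strand): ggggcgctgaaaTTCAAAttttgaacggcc
Racgap1 (chr15:99651634-99651663, minus strand): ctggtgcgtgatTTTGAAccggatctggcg
The match lay over the start or within 50 bases of it in all but *Ckap2* and *Kif2c*. TTTGAA was present in 13 of 15 called genes with a window and also in 18 of 29 that were not called. *Hjurp* and *Bub3*, which stood apart from the other genes in the values below, had it as well.
Hjurp (chr1:88277543-88277572, minus strand): tgcgtaaatactTTTGAAagaccctattag
Bub3 (chr7:131560315-131560344, plus strand): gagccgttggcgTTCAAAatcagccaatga
*Ccnb1*, which had the largest age difference among treated libraries, had no TTTGAA in its window. Its 110 bases before the start are shown with those of *Cdk1* and *Cdc20* to set the spacing of the elements side by side, with CCAAT (or ATTGG on the other strand) and TTTGAA in capitals.
Ccnb1 (chr13:100786487-100786596, minus strand): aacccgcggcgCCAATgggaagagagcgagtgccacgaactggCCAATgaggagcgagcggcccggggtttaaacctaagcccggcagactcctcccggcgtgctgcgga
Cdk1 (chr10:69352913-69353022, minus strand): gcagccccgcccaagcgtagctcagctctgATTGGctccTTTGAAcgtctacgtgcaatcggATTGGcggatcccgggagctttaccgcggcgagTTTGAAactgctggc
Cdc20 (chr4:118437344-118437453, minus strand): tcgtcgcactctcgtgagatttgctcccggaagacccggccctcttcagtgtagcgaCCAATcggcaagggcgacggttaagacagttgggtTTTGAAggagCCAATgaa
*Ccnb1* had CCAAT at 2 places in this stretch, and *Cdk1* and *Cdc20* each had CCAAT elements beside TTTGAA.

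The values are normalized counts, that is counts per gene after the authors' scaling by library size factors and rounding, and they summed to 41.2 to 44.2 M per library. Differences are given on the scale of log2(normalized count + 1), which understates the change of genes with few counts, and "called" below means an adjusted p under 0.05 from limma with 1 group more than 25% above the other. Supporting cell markers had mean log2 levels of 13.1 to 13.6 and hair cell markers of 9.8 to 10.9, and both differed between groups. Mesenchyme markers (10.9 to 12.5) were above hair cell markers in every library. Schwann cell and glia markers stood at 9.9 to 11.3 and neuron markers at 8.7 to 10.3. Immune, endothelium, erythroid and stria vascularis markers were present too. The lists hold different genes, so their levels are not shares of cells. Which cells the RNA of the mitotic genes came from was not tested. The receptor gene *Lgr5*, a target of β-catenin, stood at 8880, 8822 and 9331 in P1 treated against 2715, 2727 and 2041 in P1 untreated libraries. At P4 it stood at 7306 and 6352 in treated and at 3103, 2763 and 3934 in untreated libraries. *Lgr5* is 1 of 13 Wnt target genes listed, which did not move together with treatment. At P1, 6 were above 0 and 7 below, with 3 called higher and 0 lower (0.261% and 0.0924% of all genes). At P4, 7 were above 0 and 6 below, with 0 called (0.0543% of all genes). *Xist*, which is made in female cells, was high in P1 untreated replicates 2 and 3 (3030 and 2794) and in both P4 treated libraries (4180 and 3268), and at 13 to 39 in all others, so sex and age cannot be told apart between the treated groups, nor sex and treatment at P4. At P1 the treated libraries were all low and 2 of 3 untreated ones high in *Xist*, which touches the comparison of treatment at P1 and the interaction as well. The tissue was analysed in bulk, so that fewer dividing cells and less RNA per cell cannot be told apart in any comparison here.

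The 52 genes together were most abundant at P1 and varied most among the P1 treated libraries. Their mean log2 level was 7.94, 6.96 and 8.72 in P1 treated, 7.55, 7.03 and 7.35 in P1 untreated, 6.56 and 6.27 in P4 treated and 6.55, 6.31 and 6.43 in P4 untreated libraries. All 6 P1 libraries were thus above all 5 P4 libraries, and P1 treated replicate 2 was the lowest of the P1 libraries. Of the sum of each library, the genes took 368 to 688 parts in 1000000 at P1 and 276 to 321 at P4. They were scarce, in that 30 of the 52 had fewer than 100 normalized counts in each P4 library, while 1 (*Dlgap5*) did in each P1 library. For 20 of the 52 genes, every P1 library was above every P4 library. The share of all genes in this position was not counted. Of all genes, 22% were higher at P1 without overlap between untreated ages and 21.8% between treated ages.

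**Figure D1:**
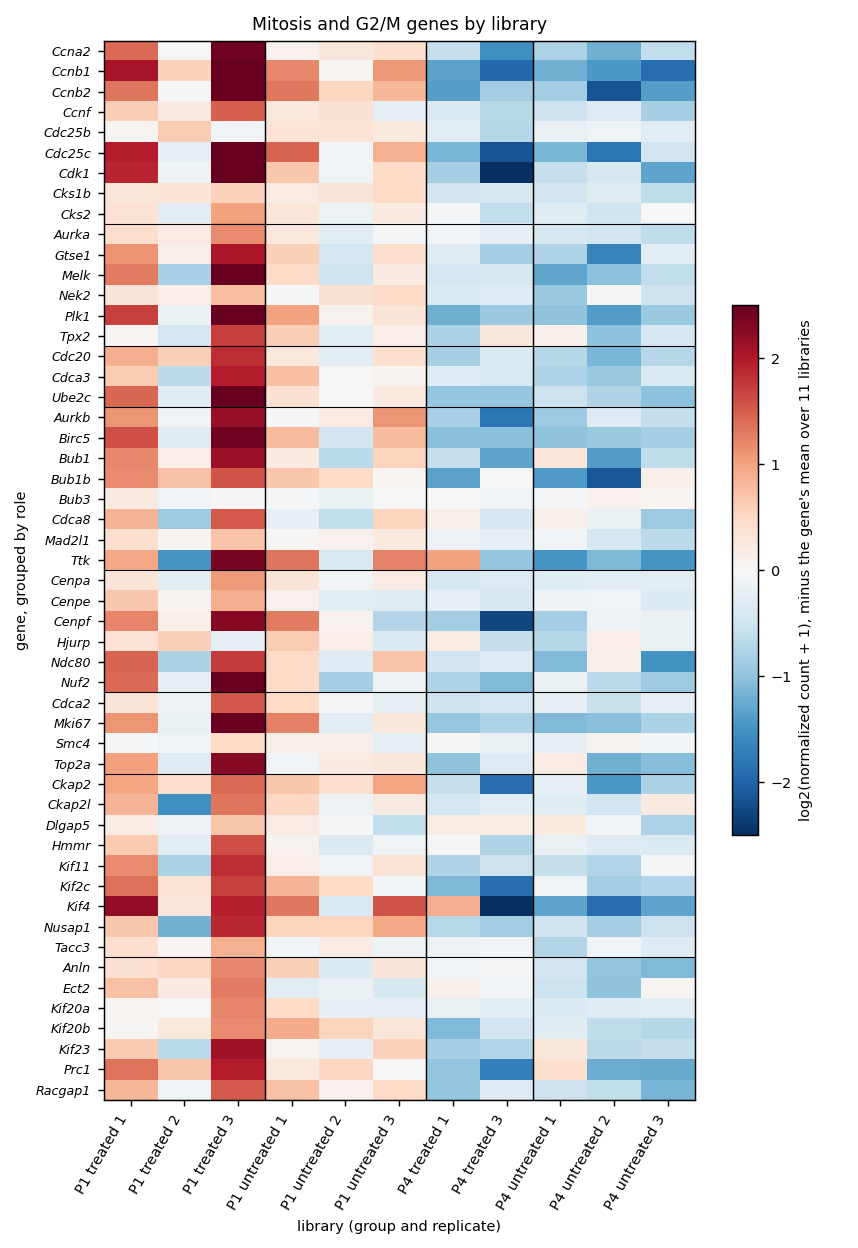
Heat map of the 52 genes (vertical axis, grouped by role with lines between the groups) in the 11 libraries (horizontal axis), coloured by log2(normalized count + 1) minus the mean of the gene over all libraries, with colours saturated at 2.5 in either direction. P1 treated replicate 3 is the reddest column, the P4 libraries are mostly blue, and the colours of *Bub3* and *Smc4* hardly change across libraries.

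The level of single genes, compared per kb of exon, ranged widely. In P4 untreated libraries *Cks1b*, which encodes a small subunit of Cdk complexes, had 873.0 normalized counts per kb and the checkpoint gene *Bub3* 687.5. *Cdc25b* (187.3), *Cks2* (184.0), *Hjurp* (153.2) and *Tacc3* (121.2) followed. At the other end were the checkpoint kinase gene *Ttk* (1.36), *Cdc25c* (1.56) and the motor gene *Kif4* (1.75). *Cks1b*, *Bub3*, *Cdc25b* and *Cks2* were also the 4 most abundant of the 52 per kb in P1 untreated libraries (1545, 636.9, 265 and 244.7).

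Whether the genes declined with age in the untreated epithelium was read from P1 against P4 untreated libraries. Of the 52 genes, 7 were called, all higher at P1, and 51 had a positive log2 fold change, the exception being *Bub3* (-0.11), against 51.9% of all genes. The 7 were *Cks1b*, *Ccnb1*, *Ccnb2*, *Ckap2*, *Kif20b*, *Anln* and *Racgap1*. As a share, 13.5% of the genes were called higher, near the 10.5% of all genes tested (9.38% were lower, 19.9% in either direction). The median log2 fold change was 0.82, a 1.77-fold difference, against 0.02 over all genes tested, and 20 of the 52 differed by over 2-fold. For 28 of the 52 (53.8%) every P1 library was above every P4 library, and for 0 every one was below, against 22% and 19.3% of all genes. At an unadjusted p under 0.05, 19 genes were higher and 0 lower (19.1% and 16.4% of all genes). The number called was 2 without P1 untreated replicate 1 or P4 untreated replicate 3, 3 without P1 untreated replicate 3 or P4 untreated replicate 2, and 1 with log2 *Xist* as a covariate, with medians of 0.73 to 0.89 when single libraries were left out. The P1 untreated libraries high in *Xist* had mean log2 levels of 7.03 and 7.35 and the other had 7.55, all above the P4 untreated libraries, which were low in *Xist*. Hair cell markers moved with age the other way, at mean log2 levels of 10.2, 10.3 and 9.76 in P1 and 10.8, 10.8 and 10.9 in P4 untreated libraries, with 14 of 17 below 0 and 5 called lower and 2 higher at P1. Of 19 supporting cell markers 14 were below 0, with 6 called lower and 4 higher. The part of cell shares in the age difference was not tested.

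Between P1 and P4 treated libraries, 16 of the 52 genes were called, all higher at P1, and 52 of 52 had a positive log2 fold change (50.4% of all genes). The background was 5.63% of all genes called higher and 5.42% lower (11.1% in either direction), against 30.8% of the mitotic genes. The median log2 fold change was 1.29, a 2.45-fold difference, against close to 0 over all genes, with 31 genes over 2-fold and 16 over 4-fold higher. For 35 of the 52 (67.3%) the libraries did not overlap, all higher at P1, against 21.8% of all genes higher and 21.3% lower without overlap. At an unadjusted p under 0.05, 35 were higher and 0 lower (14% and 13.5% of all genes). The number called depended on single libraries. It was 1 (*Cks1b*, adjusted p = 0.0475 from limma) without P4 treated replicate 3, 7 without P4 treated replicate 1 or P1 treated replicate 1, 6 without P1 treated replicate 3 and 31 without P1 treated replicate 2. With log2 *Xist* as a covariate, 0 were called by limma and the median was 1.16, and with both P1 treated replicates 2 and 3 left out 12 were called. Where a group was left with 1 library, as in this setting and without either P4 treated library, the spread came from the other groups, and the lone library was assumed to vary like them. Medians without single libraries were 0.81 to 1.89. Of 14 immune markers 13 were below 0 in this comparison, with 0 called, and of 17 hair cell markers 13 were, with 3 called lower and 1 higher at P1. Their part in the result was not tested.

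**Figure D2:**
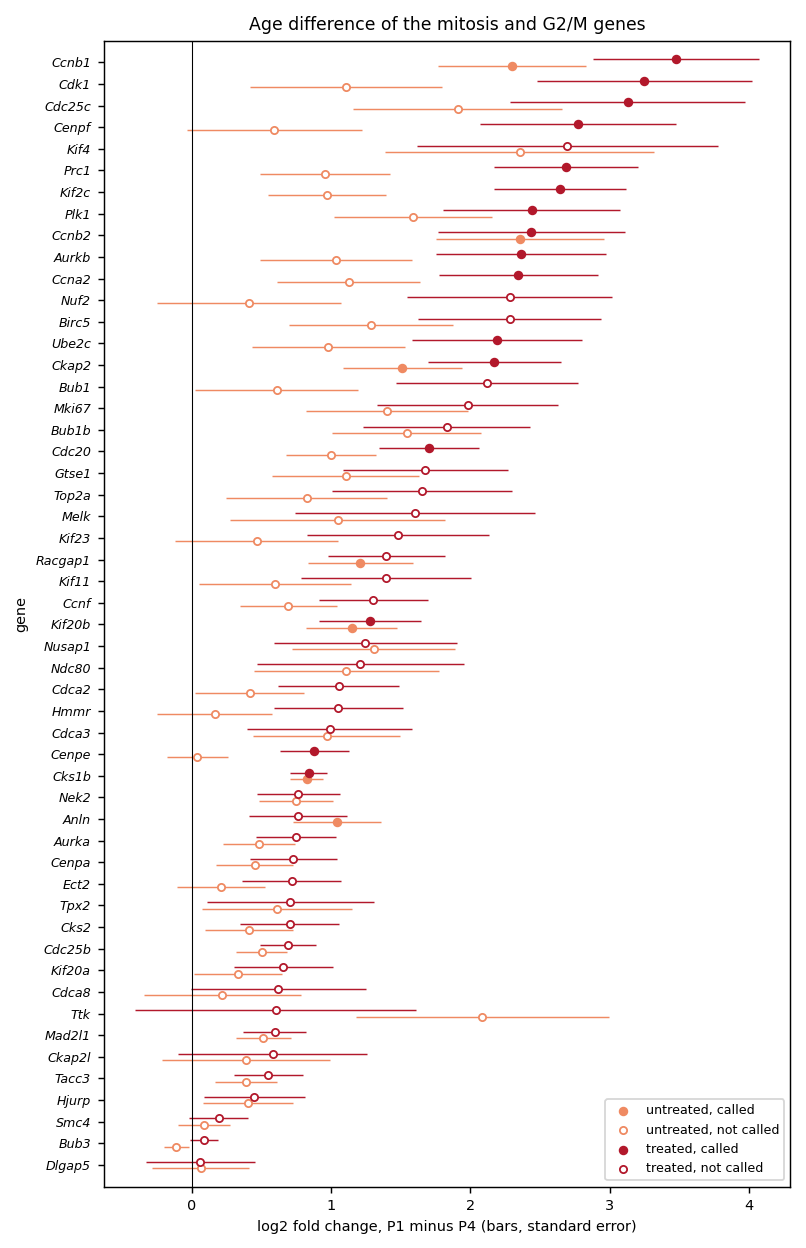
Log2 fold change of the 52 genes between P1 and P4 (horizontal axis, positive values higher at P1, bars standard errors from limma), in untreated (light) and treated (dark) libraries, ordered by the difference in treated libraries, with filled points for called genes. In treated libraries all 52 points lie to the right of 0 and 16 are filled, and in untreated libraries 51 lie to the right and 7 are filled.

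The 2 age comparisons share no library, but they come from 1 fit with a shared spread. *Cks1b*, *Ccnb1*, *Ccnb2*, *Ckap2* and *Kif20b* were called in both. These are 71.4% of the 7 called in untreated and 31.2% of the 16 called in treated libraries, and 34 of the 52 genes were called in neither. Of all genes, 19.9% were called between untreated and 11.1% between treated ages, and how many were called in both was not counted. The difference, P1 minus P4, was larger in treated libraries for 48 of the 52 genes, against 48.9% of all genes. The interaction term, which tests this contrast itself, had 0 of 52 genes called by limma (0% of all 18400 genes) and 4 at an unadjusted p under 0.05, all positive, against 2.72% of all genes positive and 3.08% negative (5.8% in either direction). The 4 were *Kif2c* (1.67, standard error 0.638), *Cenpe* (0.84, 0.331), *Prc1* (1.73, 0.697) and *Cenpf* (2.18, 0.945), with adjusted p-values of 0.82 to 0.844 from limma. The median interaction was 0.45 on the log2 scale, 0.13 without P1 treated replicate 3 and 0.15 with log2 *Xist* as a covariate. A larger age difference in treated libraries was therefore not shown for any gene.

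Among the roles, the mitotic cyclins, their kinase and its partners had the largest median age differences. Of 9 genes of this group, 3 were called higher at P1 in untreated and 6 in treated libraries, with medians of 1.11 and 2.35. The background for this and the other roles is 10.5% of all genes called higher between untreated and 5.63% between treated ages. Between untreated ages *Kif4* (2.35) and *Ttk* (2.09), of other roles, were above *Ccna2* (1.13) and *Cdk1* (1.11). *Ccnb1*, which encodes cyclin B1, stood at 437, 156 and 767 normalized counts in P1 treated, 240, 109 and 224 in P1 untreated, 41 and 26 in P4 treated and 45, 38 and 27 in P4 untreated libraries. Every P1 library was above every P4 library. The log2 fold change with age was 2.30 in untreated (standard error 0.533, adjusted p = 0.0129 from limma) and 3.48 in treated libraries (0.596, adjusted p = 0.007). Without P4 untreated replicate 3 the former adjusted p was 0.0505, and without P4 treated replicate 3 the latter was 0.0739. *Ccnb2*, which encodes cyclin B2, stood at 155, 59 and 395, at 153, 89 and 110, at 23 and 33 and at 33, 13 and 23 in the same order of libraries. Its age differences were 2.36 (0.602, adjusted p = 0.0199 from limma) and 2.44 (0.673, adjusted p = 0.043), again with no overlap between ages. A processed copy, *Ccnb2-ps*, is in the table too, and reads shared with it cannot be told apart here.

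*Cdk1*, the kinase that these cyclins activate, stood at 467, 113 and 904 in P1 treated, 197, 114 and 175 in P1 untreated, 69 and 20 in P4 treated and 83, 94 and 49 in P4 untreated libraries. The 2 P4 treated libraries lay far apart, and P1 treated replicate 2 was at the low end of the P1 libraries. The difference between treated ages was called (3.25, standard error 0.772, adjusted p = 0.0251 from limma), and that between untreated ages, 1.11, was not. *Ccna2*, which encodes cyclin A2, stood at 317, 119 and 645, at 127, 143 and 159, at 79 and 40 and at 69, 51 and 77. It was called between treated ages (2.35, standard error 0.574, adjusted p = 0.0279 from limma). Of its exon bases 12.5% overlap *Exosc9* on the other strand, which the unstranded libraries do not separate. *Cdc25c*, which encodes a phosphatase that activates Cdk1, was rare, at 68, 14 and 116, at 48, 16 and 32, at 7 and 3 and at 7, 4 and 12. Its difference between treated ages was 3.13 (0.841, adjusted p = 0.0393 from limma), and 12.7% of its exon bases overlap *Gm3550*.

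*Cks1b* had the smallest adjusted p of the 52 genes in both age comparisons, with little spread. It stood at 1687, 1721 and 2040 in P1 treated, 1575, 1710 and 1933 in P1 untreated, 992 and 1030 in P4 treated and 977, 1102 and 870 in P4 untreated libraries. The P1 libraries lay in 1 range whatever the treatment, and so did the P4 libraries. The log2 fold change was 0.82 in untreated (standard error 0.12, adjusted p = 0.00132 from limma) and 0.84 in treated libraries (0.134, adjusted p = 0.00518). It was the only 1 of the 7 genes called between untreated ages that kept its call in all 19 settings tried, and between treated ages it lost the call only with log2 *Xist* as a covariate (adjusted p = 0.134). A related gene, *Cks1brt*, is in the table as well. *Cdc25b*, *Cks2* and *Ccnf* were not called, with age differences of 0.41 to 0.69 in untreated and 0.69 to 1.30 in treated libraries.

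The kinase group held *Plk1*, *Aurka*, *Nek2* and *Melk* with *Tpx2*, the activator of Aurora A, and *Gtse1*, and 1 of the 6 was called. *Plk1*, the Polo kinase that acts from mitotic entry to cytokinesis, stood at 274, 74 and 487 in P1 treated, 169, 89 and 104 in P1 untreated, 35 and 43 in P4 treated and 41, 31 and 43 in P4 untreated libraries. Ages did not overlap. The age difference was 2.44 in treated (standard error 0.634, adjusted p = 0.0344 from limma) and 1.59 in untreated libraries (0.567, adjusted p = 0.0715). *Aurka*, the Aurora kinase of the spindle poles, stood at 236, 201 and 396, at 210, 143 and 168, at 166 and 150 and at 132, 126 and 111. The median age difference of the group was 0.90 in untreated and 1.18 in treated libraries.

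Of 8 genes of the chromosomal passenger complex and the spindle checkpoint, 1 was called. *Aurkb*, the kinase of the passenger complex, stood at 149, 64 and 316 in P1 treated, 67, 79 and 150 in P1 untreated, 39 and 19 in P4 treated and 36, 55 and 45 in P4 untreated libraries, with a difference of 2.36 between treated ages (standard error 0.611, adjusted p = 0.0339 from limma). Its partner *Birc5*, which encodes survivin, missed the threshold there (2.28, adjusted p = 0.0504). The checkpoint kinase gene *Bub1* stood at 102, 49 and 198, at 51, 27 and 65, at 29 and 17 and at 54, 16 and 28, with overlapping untreated ages. *Bub3*, whose protein recruits Bub1 and BubR1 to kinetochores, had 4147 to 5462 normalized counts in all 11 libraries. Its age differences were -0.11 and 0.09, so that it varied least of the checkpoint genes.

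The genes *Cdc20*, *Ube2c* and *Cdca3* were grouped around the APC/C. Their age differences were close to each other in untreated libraries, from 0.97 to 1.00, with 0 called. *Cdc20*, the activator of the APC/C, stood at 465, 375 and 896 in P1 treated, 299, 204 and 329 in P1 untreated, 139 and 196 in P4 treated and 150, 111 and 150 in P4 untreated libraries. All P1 libraries were above all P4 libraries, and the P1 treated ones were above the P1 untreated ones. It was called between treated ages (1.70, standard error 0.36, adjusted p = 0.0162 from limma) and just missed between untreated ages (1.00, 0.322, adjusted p = 0.0506). *Ube2c*, the ubiquitin-conjugating enzyme of the APC/C, stood at 316, 95 and 676, at 152, 117 and 139, at 59 and 59 and at 80, 69 and 57. It was called between treated ages (2.19, standard error 0.612, adjusted p = 0.0447), and 22.8% of its exon bases overlap *Tnnc2*, which had a mean of 2.82 normalized counts.

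At the kinetochore, 2 of 6 genes were called, both between treated ages. *Cenpf*, a large kinetochore protein gene, stood at 224, 105 and 464 in P1 treated, 236, 102 and 57 in P1 untreated, 52 and 19 in P4 treated and 53, 88 and 85 in P4 untreated libraries (2.78 between treated ages, standard error 0.704, adjusted p = 0.0319 from limma). Its untreated ages overlapped. *Cenpe*, the gene of a kinetochore motor, stood at 387, 258 and 457, at 263, 201 and 198, at 204 and 184 and at 223, 225 and 192. Its difference between treated ages was smaller but called (0.88, standard error 0.247, adjusted p = 0.0453), while that between untreated ages was 0.04. *Hjurp*, which encodes the chaperone that loads the centromeric histone *Cenpa*, had 898 to 2295 normalized counts with groups that overlapped, and age differences of 0.40 in untreated and 0.45 in treated libraries that were not called. It was at its highest in P1 untreated replicate 1 and at 1248 in P1 treated replicate 3, where nearly all other genes peaked.

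Among genes of chromosome structure, 0 of 4 were called. *Mki67*, the gene of the proliferation marker Ki-67, stood at 225, 92 and 582 in P1 treated, 252, 86 and 127 in P1 untreated, 54 and 61 in P4 treated and 48, 50 and 60 in P4 untreated libraries. Every P1 library was above every P4 library, and the age differences were 1.40 (standard error 0.582, adjusted p = 0.113 from limma) and 1.98. *Top2a*, which encodes the topoisomerase that untangles sister chromatids, stood at 359, 140 and 857, at 166, 205 and 214, at 87 and 141 and at 203, 76 and 84. P4 untreated replicate 1 was among the P1 untreated values. The condensin gene *Smc4* hardly moved with age (0.08 and 0.19).

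Of 9 genes of spindle motors and microtubule proteins, 1 was called between untreated ages, near the background, and 2 between treated ages. *Ckap2*, which encodes a microtubule-associated protein of the spindle, stood at 123, 84 and 165 in P1 treated, 100, 81 and 122 in P1 untreated, 41 and 16 in P4 treated and 52, 22 and 35 in P4 untreated libraries. The ages did not overlap, and the differences were 1.51 (standard error 0.43, adjusted p = 0.0314 from limma) and 2.17 (0.481, adjusted p = 0.0193). *Kif2c*, the gene of a kinesin that takes microtubules apart, stood at 123, 60 and 155, at 86, 65 and 45, at 21 and 12 and at 44, 26 and 28. It was called between treated ages (2.64, standard error 0.475, adjusted p = 0.00874). *Tacc3*, which encodes a stabilizer of spindle fibres, stood at 737, 572 and 1023, at 526, 641 and 508, at 502 and 531 and at 332, 515 and 445. *Dlgap5* had age differences of 0.06 in both.

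Of 7 cytokinesis genes, 3 were called between untreated and 2 between treated ages. *Racgap1*, part of the centralspindlin complex, stood at 720, 375 and 1182 in P1 treated, 680, 440 and 569 in P1 untreated, 207 and 324 in P4 treated and 284, 264 and 182 in P4 untreated libraries (1.21 between untreated ages, standard error 0.375, adjusted p = 0.0438 from limma). *Anln*, which encodes the actin-binding protein anillin of the contractile ring, stood at 133, 147 and 234, at 155, 80 and 127, at 97 and 98 and at 73, 51 and 47. It was called between untreated ages (1.04, standard error 0.314, adjusted p = 0.0395), and in treated libraries the difference was 0.76. *Kif20b*, a kinesin gene, stood at 110, 130 and 245, at 205, 159 and 133, at 50 and 77 and at 87, 69 and 65. It was called at both (1.15, adjusted p = 0.0318, and 1.28, adjusted p = 0.0491), but the call between treated ages was lost in 13 and that between untreated ages in 7 of 19 settings. With replicate numbers as a block its adjusted p from limma was 0.0538 between untreated and 0.0841 between treated ages. Calls between untreated ages were also lost in 10 of 19 settings for *Racgap1* and in 7 for *Anln*. Of the 16 genes called between treated ages, 0 kept the call in every setting. *Prc1*, which bundles the microtubules of the spindle midzone, stood at 402, 255 and 613, at 188, 224 and 157, at 79 and 47 and at 207, 66 and 65. P4 untreated replicate 1 was within the P1 untreated range, and the call was between treated ages (2.69, standard error 0.519, adjusted p = 0.0111). Of its exon bases, 11.1% overlap *Rccd1* on the other strand.

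**Figure D3:**
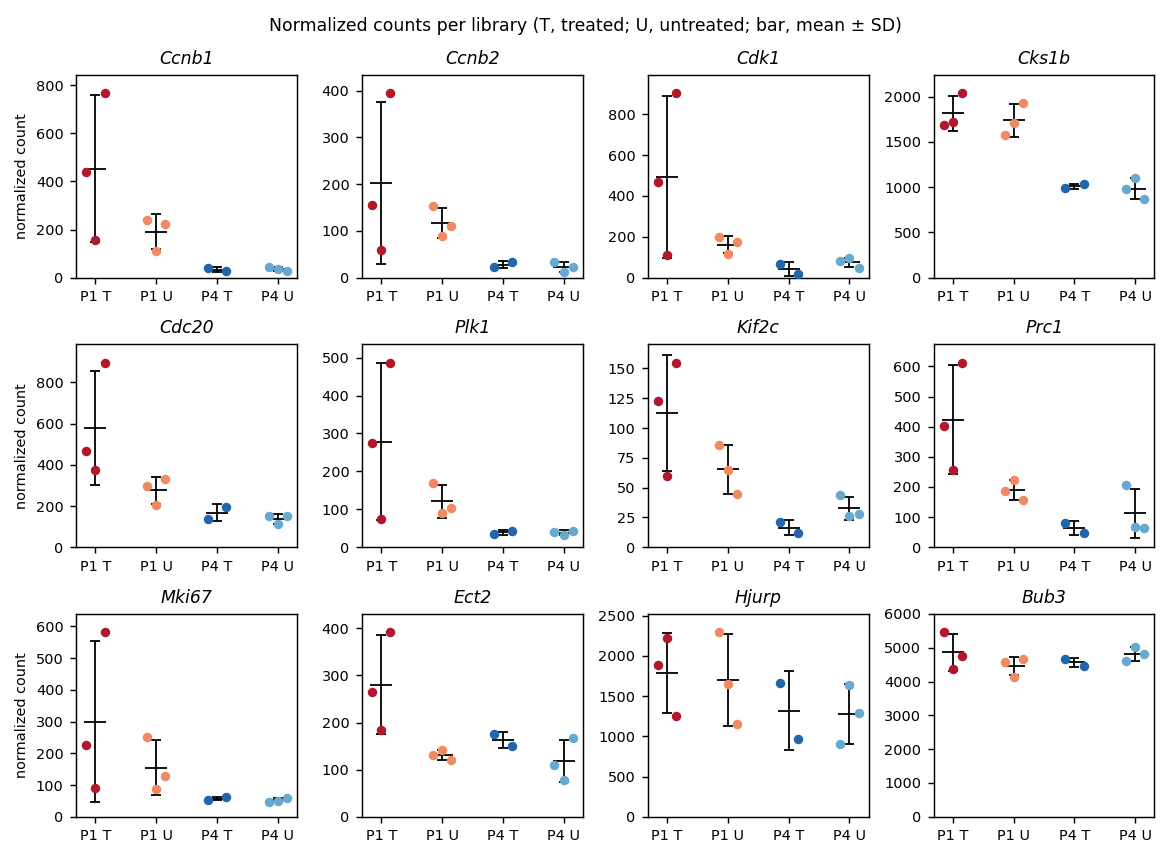
Normalized counts (vertical axes, from 0) of 12 genes in each library of the 4 groups (horizontal axes, T treated, U untreated), with points for libraries and bars for the mean ± SD of the group. *Ccnb1*, *Ccnb2*, *Cdk1*, *Plk1* and *Mki67* are low at P4 and spread widely among P1 treated libraries, *Cks1b* is lower at P4 with little spread, and *Hjurp* and *Bub3* show no separation by age.

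Whether stabilized β-catenin raised these genes was read from treated against untreated libraries at each age. The treated pups alone carried Sox2-CreER, and the paper names lowered *Sox2* levels in such alleles as a limitation. *Sox2* stood at 4930, 5542 and 6006 in P1 treated against 8042, 10170 and 8121 in P1 untreated libraries. At P4 it stood at 7993 and 7577 in treated against 10485, 10101 and 10461 in untreated libraries. Stabilized β-catenin and this allele cannot be told apart in these comparisons. At P1, 0 of 52 genes were called by limma (0.353% of all genes tested were called, 0.261% higher and 0.0924% lower). Before adjustment, 6 had p under 0.05 and were higher (11.5%), and 0 were lower, against 5.18% and 6.99% of all genes. The log2 fold change was above 0 for 48 of 52 (92.3%), against 50.8% of all genes, with a median of 0.59, a 1.5-fold difference, and a range of -0.22 to 1.51. With log2 *Xist* as a covariate the median was 0.41. The groups did not overlap for 4 genes, *Ect2*, *Cdc20*, *Prc1* and *Bub1b*, all higher in treated libraries (6.95% of all genes were higher and 8.33% lower without overlap). Supporting cell, mesenchyme and immune markers moved with this comparison. Mean log2 levels of mesenchyme and immune markers were 12.3, 11.3 and 11 and 7.91, 6.74 and 6.82 in P1 treated libraries. In P1 untreated libraries they were 12.1, 12.2 and 12.5 and 8.38, 8.13 and 7.98. Supporting cell markers stood at 13.4, 13.5 and 13.5 in P1 treated against 13.3, 13.3 and 13.1 in P1 untreated libraries. Of these 19 markers, which include *Lgr5* and *Sox2*, 14 were above 0, with 3 called higher and 1 lower. The part of these markers in the result was not tested.

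*Ect2*, which encodes the exchange factor that starts the cleavage furrow, had the smallest p of the 52 genes. It stood at 265, 185 and 392 in P1 treated, 132, 141 and 121 in P1 untreated, 175 and 151 in P4 treated and 109, 79 and 168 in P4 untreated libraries. All P1 treated libraries were above all untreated ones, and the log2 fold change at P1 was 1.03 (standard error 0.317, adjusted p = 0.227 from limma). *Cenpe* (0.71, standard error 0.221, adjusted p = 0.231), *Cdc20* (0.98, 0.322, adjusted p = 0.25), *Aurka* (0.63, 0.258, adjusted p = 0.357), *Prc1* (1.08, 0.464, adjusted p = 0.385) and *Nuf2* (1.51, 0.661, adjusted p = 0.395) followed. In the other roles the smallest p-values belonged to *Ccna2* (1.02, 0.514, adjusted p = 0.476), *Tacc3* (0.44, 0.221, adjusted p = 0.472), *Bub1* (1.14, 0.586, adjusted p = 0.489) and *Top2a* (0.85, 0.58, adjusted p = 0.632).

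The P1 treated libraries lay further from each other than their mean lay from that of the untreated ones. Replicate 3 had the highest value of all 11 libraries for 48 of the 52 genes (9.98% of all genes), the exceptions being *Cdc25b* (replicate 2), *Bub3* and *Kif4* (replicate 1), and *Hjurp* (P1 untreated replicate 1). Replicate 3 was above replicate 1, and replicate 1 above replicate 2, for 45 of the 52 (19% of all genes). Against the mean of the P1 untreated libraries, the median ratio over the genes was 1.48 in replicate 1, 0.824 in replicate 2 and 2.77 in replicate 3. Replicate 3 was above all 3 untreated libraries for 50 genes and replicate 1 for 34, while replicate 2 was above all of them for 5 and below all of them for 22 (30.2%, 26%, 30% and 32.1% of all genes). Between replicates 3 and 2 the median ratio was 3.49, with 24 genes over 4-fold apart. The largest ratios to the untreated mean in replicate 3 were 7.9 for the kinase gene *Melk* (89, 20 and 308 against 50, 25 and 42 in P1 untreated libraries) and 7.76 for the kinetochore gene *Nuf2* (107, 34 and 295 against 56, 22 and 36).

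**Figure D4:**
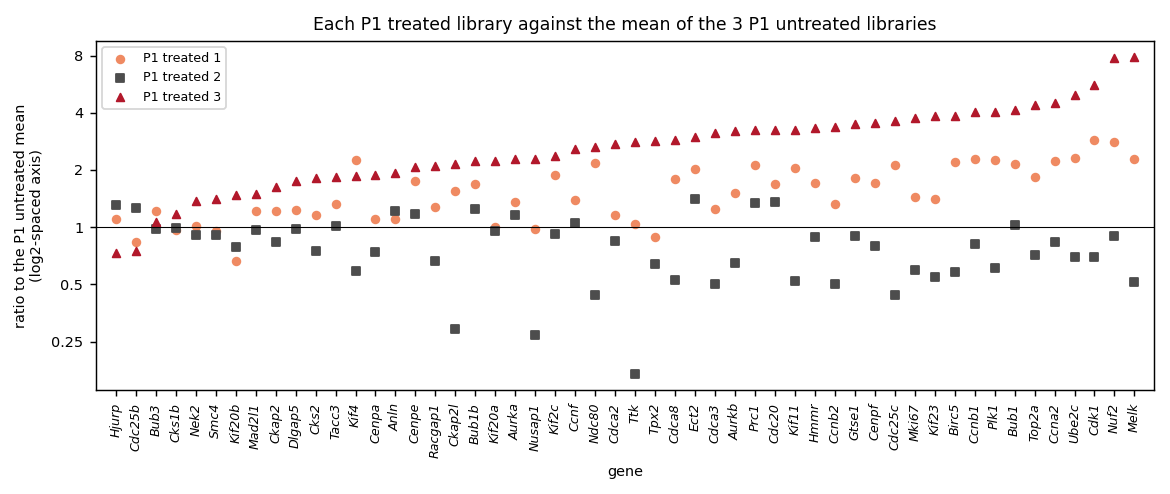
Ratio of each P1 treated library to the mean of the 3 P1 untreated libraries (vertical axis, log2-spaced, 1 marked by a line) for the 52 genes (horizontal axis), ordered by the ratio in replicate 3. Replicate 3 (triangles) lies above 1 for 50 genes and reaches 7.9, replicate 1 (circles) lies mostly above 1, and replicate 2 (squares) lies mostly below.

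The median SD of the 52 genes within a group was 0.955 on the log2 scale in P1 treated, 0.376 in P1 untreated, 0.238 in P4 treated and 0.335 in P4 untreated libraries, against 0.223, 0.178, 0.12 and 0.192 over all genes tested. Without P1 treated replicate 3 the median difference at P1 was 0.15 with 38 genes above 0, and without replicate 2 it was 1.06 with 50. *Lgr5* did not follow this order, at 8880, 8822 and 9331 in the same libraries. Other cell markers differed among them as well. Mesenchyme markers were highest in replicate 1 (12.3 against 11.3 and 11), stria vascularis and melanocyte markers in replicate 2 (9.22 against 7.19 and 6.4), and Schwann cell and glia markers were lower in replicate 2 (10.1) than in replicates 1 and 3 (11.3 in both). S phase genes had the order of the mitotic genes, at 8.95, 8.49 and 9.32 against 8.48 to 8.64 in P1 untreated libraries. The part of other cell types in these differences was not tested.

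At P4, treated and untreated libraries gave 0 of 52 genes called by limma (0.0543% of all genes were called, 0.0326% higher and 0.0217% lower). The log2 fold change was above 0 for 26 genes and below 0 for 26 (50.4% of all genes were above 0), with a median of 0.01. At an unadjusted p under 0.05, 1 gene, *Anln*, was higher and 0 were lower (6.26% and 5.38% of all genes), by 0.79 on the log2 scale (standard error 0.352, adjusted p = 0.424 from limma). The libraries did not overlap for 4 genes higher and 5 lower in treated libraries, against 16.6% and 16.9% of all genes. *Kif2c* (-0.95, standard error 0.475) and *Cenpf* (-1.19, standard error 0.704) were among the lower ones. The sign of the median was not stable, at -0.09 to 0.03 when single libraries were left out, -0.20 with the replicate number as a block and 0.14 with log2 *Xist* as a covariate. Whether the treatment differences at P1 and at P4 differed from each other was tested by the interaction given above. Mesenchyme markers moved at P4 too, at mean log2 levels of 11.5 and 10.9 in treated against 12.1, 12.2 and 11.9 in untreated libraries. Of 12, 11 were below 0, and 9 were lower without overlap. Immune markers (13 of 14) and neuron markers (8 of 10) were mostly below 0 as well, and supporting cell markers mostly above 0 (15 of 19). In these lists 0 were called, and the part of these markers was not tested.

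Regulators of the program were followed in a separate list of 20 genes of the MuvB complexes, FoxM1 and E2F factors. Between untreated ages 2 of the 20 were called higher at P1 and 1 lower, near the background of 10.5% and 9.38% of all genes. The higher ones were *Tfdp1* (0.33) and *Lin9* (0.47), and the lower one was *Myb* (-2.24, standard error 0.438, adjusted p = 0.00582 from limma). Between treated ages 3 of the 20 were higher and 0 lower (5.63% and 5.42% of all genes), namely *E2f8* (4.22, standard error 0.762, adjusted p = 0.00888), *Rbl1* (0.74) and *E2f1* (1.33, adjusted p = 0.0474). *E2f8* was rare, at 47, 52 and 104 in P1 treated, 22, 28 and 32 in P1 untreated, 1 and 5 in P4 treated and 32, 4 and 11 in P4 untreated libraries. The size of its difference therefore rests on very few counts in the P4 treated libraries. *Foxm1*, which encodes an activator of many G2/M genes, was not ordered like them. It stood at 215, 223 and 195 in P1 treated, 121, 196 and 194 in P1 untreated, 218 and 99 in P4 treated and 220, 52 and 140 in P4 untreated libraries.

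The background for the lists that follow is 10.5% of all genes called higher and 9.38% lower at P1 between untreated ages, and 5.63% and 5.42% between treated ages. Of 15 genes that control entry into G2 and mitosis, 3 were higher and 1 was lower at P1 in each age comparison, the same 4 genes in both. They were *Cdk7* (0.61 in untreated, adjusted p = 3.28e-04 from limma, and 0.35 in treated libraries), *Bora* (0.52 and 0.54), the inhibitory kinase gene *Wee1* (0.64 and 0.74) and, lower at P1, the growth arrest gene *Gadd45a* (-0.99 and -0.60). Of 17 APC/C subunits and inhibitors 1 was higher in each, near or under the background, *Cdc23* between untreated (0.33) and the inhibitor gene *Fbxo5* between treated ages (1.85, adjusted p = 0.0133). Of 18 cohesin and condensin genes 1 was higher in each, *Ncaph* (1.29) and *Ncapg2* (1.03). *Kif20a*, a member of the 52, shares 29.3% of its exon bases with *Cdc23* on the other strand, so its 188 to 563 normalized counts are uncertain.

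Among 29 further kinetochore genes, 5 were higher and 0 lower at P1 in untreated, and 4 higher and 1 lower in treated libraries. *Cenpl* (0.80) and *Ska2* (0.54) led the former, and *Kntc1* (3.38, standard error 0.683, adjusted p = 0.0133 from limma) and *Oip5* (1.73) the latter, where *Zw10* was lower (-0.66). Among 32 further spindle, centriole and cytokinesis genes, 5 were higher and 2 lower in untreated and 5 higher and 1 lower in treated libraries. *Aspm*, whose protein acts at spindle poles, was higher at P1 in untreated libraries (2.83, standard error 0.507, adjusted p = 0.00381), and *Depdc1a* (4.17, standard error 0.929, adjusted p = 0.0199) and *Fam64a* (3.18) in treated ones. *Cit*, which encodes citron kinase, was lower at P1 in both (-1.74, adjusted p = 0.00422, and -1.48, adjusted p = 0.0266), and *Sapcd2* in untreated libraries (-1.83). Across these 6 lists, 0 genes were called by limma for treatment at P1, at P4 or for the interaction, and at an unadjusted p under 0.05 there were 8 higher (6.11%) and 2 lower (1.53%) of 131 for treatment at P1, against 5.18% and 6.99% of all genes. At P4 there were 4 higher and 4 lower (3.05% each, against 6.26% and 5.38%), and the interaction had 4 positive (3.05%, against 2.72%) and 5 negative genes (3.82%, against 3.08%), so these counts were near or under the background. Between ages, 17 of the 131 (13%) were called higher and 4 (3.05%) lower in untreated libraries, and 17 (13%) higher and 3 (2.29%) lower in treated ones, against 10.5% and 9.38% and against 5.63% and 5.42% of all genes. In untreated libraries the share called higher was thus close to the 13.5% of the 52 genes and near the background for both. The medians of the 6 lists were 0.03 to 0.46 between untreated and 0.06 to 0.49 between treated ages, against 0.82 and 1.29 for the 52 genes.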

How the data were processed

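RNA-seq of cochlear sensory epithelium was analysed from 11 of 12 libraries, which were 3 treated and 3 untreated ones at P1 and 2 treated and 3 untreated ones at P4. The authors aligned reads to mm10 with STAR 2.5.2b and deposited a table of normalized counts. The deposited values are best described as a score, since they are whole numbers after the authors' scaling of each library by a size factor. Per their methods, featureCounts served quality control, and estimates from Sailfish, summed per gene with tximport, were used for quantification. Which of these counts, whole or estimated, stand behind the table is not stated. The table had 27755 entries, of which 626 lacked a symbol and 1 repeated an ID and was dropped. Groups and replicate numbers were taken from the sample titles.

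On the scale of log2(normalized count + 1), limma 3.58.1 under R 4.3.3 was fitted with 1 mean for each of the 4 groups, a shared spread and eBayes with trend, over 18400 genes with a mean of at least 10. P-values were adjusted by Benjamini and Hochberg over all of them, and calls needed an adjusted p under 0.05 with 1 group more than 25% above the other. Count models were not used because the values are no longer raw counts. Treatment was compared within P1 and within P4, age within treated and within untreated libraries, and the interaction was tested. The 52 genes, their roles, the other lists and the comparisons were chosen with earlier results of these data known, so counts and medians over a list are descriptions beside those of all genes, with no set test.

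Genes given library by library were those called in any comparison and the 1 with the smallest p of its role at P1. Others of the 52 and *Foxm1* were added after their values were seen. *Lgr5*, *Xist* and *Sox2* were planned as context genes, with earlier results of these data known. Values of *Ctnnb1* and *Axin2*, planned with them, are not given. Genes of the other lists were up to 4 called per list and comparison with the smallest adjusted p. Lengths and overlaps came from GENCODE M21 (GRCm38), whose exons were merged per gene. The libraries were made without strand information, so 16 of the 52 genes whose exons overlap another gene could hold its reads. Promoters were RefSeq windows of 250 bases before and 50 after the start. Same-numbered P1 and P4 untreated libraries deviated together (correlation of residuals 0.115 to 0.136 across genes), which was at most 0.026 in the other comparisons, so the replicate number was also fitted as a block. Further alternatives were other pseudocounts, a higher minimum or none, eBayes with no trend, only the groups compared, other scalings, log2 *Xist* as a covariate, weights per library, an adjusted p under 0.1, and leaving out each library. Leaving out P1 treated replicates 2 and 3 together and the distance of 50 bases from the start were chosen after seeing the data. Depth is known only as sums of normalized counts.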

Additional observations from a re-analysis of the deposited data

How the results depend on the processing

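In no setting tried did a called gene of the 52 change direction, and 0 genes were called by limma for treatment at P1, treatment at P4 or the interaction in any of them. The counts of called genes between ages moved. Between untreated ages, 7 in the fit reported, the count was 16 with only the groups compared, 12 with weights per library, 14 at an adjusted p under 0.1, 1 with log2 *Xist* as a covariate and 2 to 7 when single libraries were left out. Between treated ages, 16 in the fit reported, it was 8 without the eBayes trend, 4 with only the groups compared, 25 with weights per library, 25 at an adjusted p under 0.1, 0 with log2 *Xist* as a covariate and 1 to 31 when single libraries were left out, where leaving out either P4 treated library left 1 in that group, assumed to vary like the other groups. With the replicate block the counts were 9 and 18, the median difference at P4 was -0.20 in place of 0.01, and in the untreated age comparison *Kif20b* was the gene among the 7 that lost its call (adjusted p = 0.0538 from limma). In the treated one *Cenpe*, *Cenpf* and *Kif20b* lost theirs (adjusted p = 0.0557, 0.0535 and 0.0841). Of the called genes, 1 of 7 and 0 of 16 kept the call in every setting. The cause of these changes was not tested. Medians without single libraries were 0.15 to 1.06 for treatment at P1, -0.09 to 0.03 for treatment at P4, 0.73 to 0.89 and 0.81 to 1.89 for age in untreated and treated libraries, and 0.13 to 0.92 for the interaction. With a pseudocount of 8, the mean log2 level was 6.51 in P4 treated replicate 3 and 6.72, 6.53 and 6.61 in the P4 untreated libraries. With only the 250 bases before the start, TTTGAA lay in 34.1% of the 44 genes (18.3% of all symbols), TTTGAA or TTCGAA in 36.4% (19.6%) and either with CCAAT in 34.1% (7.0%), since many matches lie just after the start. Genes with few counts, such as *Kif4*, *Ttk* and *Cdc25c*, had standard errors among the largest of the 52.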

Other observations

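The 2 P4 treated libraries, with mean log2 levels of 6.56 and 6.27 over the 52 genes, differed in single genes in both directions, with replicate 1 above replicate 3 for 29 of 52. The motor gene *Kif4*, on chromosome X, stood at 55 and 2 normalized counts, *Ttk* at 38 and 9, *Cdk1* at 69 and 20 and *Cenpf* at 52 and 19. *Bub1b*, which encodes the checkpoint kinase BubR1, stood at 66 and 171 and *Tpx2* at 102 and 215, the other way round. *Bub1b* was uneven in P4 untreated libraries too, at 63, 38 and 186. These genes were chosen after their values were seen.

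*Cdc25b* went against the order of most of the genes among P1 treated libraries, at 829, 1243 and 744 normalized counts in replicates 1 to 3. Its highest value of all 11 libraries was in replicate 2, where most of the 52 genes were low. In P1 untreated libraries it stood at 1008, 1009 and 947. *Hjurp* had the same reversed order among P1 treated libraries, at 1886, 2222 and 1248. *Cdc25c*, which encodes the related phosphatase, followed the other genes at 68, 14 and 116.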
